A study of Saccharomyces cerevisiae with 255 samples.

Results

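Nab6 is a yeast protein that binds mRNA, and long intrinsically disordered regions (IDRs) lie beside its RNA-binding domains. The libraries described here come from the strains Nab6_ΔIDR_1 and Nab6_ΔIDR_2, each of which lacks 1 disordered region of Nab6, and they were chosen by their strain labels alone. There are 4 such libraries, 2 of each strain, of 255 in all, and they were set against the 3 libraries of the strain with intact Nab6. Also given are 2 libraries each of 2 further internal deletions, Nab6_Δ2 and Nab6_Δ4, and 11 libraries of strains in which an RBP is fused to catalytically inactive Pup2 (dPup2).

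All strains are BY4741, a haploid laboratory strain of MATa mating type. The deletion strains carry NAB6::Nab6_ΔIDR_1-Pup2, NAB6::Nab6_ΔIDR_2-Pup2, NAB6::Nab6_Δ2-Pup2 or NAB6::Nab6_Δ4-Pup2, and the intact strain carries NAB6::Nab6-Pup2, so that every Nab6 protein here is fused to Pup2 at its own locus. No untagged or Nab6-dPup2 strain entered the comparison, and the dPup2 libraries belong to Puf3, Puf4 and Puf5. The titles name 2 clones for Nab6_ΔIDR_1, Nab6_ΔIDR_2 and Nab6_Δ4, with 1 library each, and no clone for the other strains. Which residues each deletion removes is not given in the sources used here. Cultures were taken in exponential growth in synthetic medium with glucose.

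In RNA tagging, an RBP is fused to PUP-2, a poly(U) polymerase of Caenorhabditis elegans, which adds a stretch of Us after the poly(A) tail of the mRNAs the RBP binds. The Us therefore stay on the mRNA as a record of binding in the living cell. Proteins such as Nab6 often combine folded RNA-recognition domains with flexible disordered segments, and either can contribute to the choice of mRNAs. The yeast cell wall, whose mRNAs make up much of the list below, is built of glucans, a little chitin and many glycoproteins, which are secreted and then bound to the glucan through GPI anchors or directly, as the PIR proteins are.

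For each gene and library, the files give the number of reads with 0 to 16 Us. A read with 4–13 Us is called tagged, and the tagged share of a gene is the percentage of its reads that are tagged. The modification level weights each tagged read by its number of Us and divides by all reads of the gene, and a target has a modification level above 0.15 at 16 reads per 1000000 reads of the library (RPM) or more. By this definition intact Nab6 had 182 targets. Of these, 38 were above 0.15 with at least 100 reads in each of the 3 intact libraries, and they are called consistent targets. The library totals were 1343629 and 1534713 reads for ΔIDR_1, 937247 and 1055534 for ΔIDR_2, 465216 to 2269919 for intact Nab6 and 181495 to 2917011 for dPup2. Replicates differed by more than counting noise, the chi-square statistic over genes being 3.06 to 9.45 times its degrees of freedom. The deletion markers of BY4741 had 0 reads of MET17, at most 2 of LEU2 and at most 4 of URA3 in the 7 libraries, and HIS3, of which this background lacks only an internal part, had 187 to 712. The mating-type a gene MFA1 had 974 to 4167 reads. Replicate 4 of intact Nab6 stands apart, since the tagged share of the 4109 expressed genes that are no target was 0.449% in it, against 0.117% and 0.101% in replicates 1 and 2, and results that rest on it are given without it as well.

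NAB6 itself (YML117W, chromosome XIII, 34243 to 37647, R64) had 31 and 26 reads in ΔIDR_1, 30 and 25 in ΔIDR_2, and 59, 21 and 10 in intact Nab6. Its total did not pass the test in either deletion, with log2 changes of -0.33 ± 0.28 (SE, edgeR adjusted p = 0.793) and 0.10 ± 0.28 (adjusted p = 0.933). Reads were counted around the end of the transcript, so that they do not check which part of the gene was deleted, and protein levels were not measured.

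Deletion of the first region left most of the tagging of Nab6 targets in place, whereas deletion of the other removed nearly all of it. Over the 38 consistent targets, the mean tagged share was 13.9% and 12.7% in the ΔIDR_1 libraries, 0.862% and 0.983% in ΔIDR_2, 14.8%, 15.1% and 14.8% in intact Nab6, and 0.00586% to 0.0507% in dPup2. Neither deletion overlapped intact Nab6. The ratio to intact Nab6 was 0.892 for ΔIDR_1 and 0.0620 for ΔIDR_2, and both had p = 0.2 in an exact two-sided permutation test, the smallest value that 2 against 3 libraries can give. These targets were chosen on the intact libraries, which favours a higher share there.

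The comparison of the deletions with each other is free of that choice. The mean share over the consistent targets was 14.4 times as high in ΔIDR_1 as in ΔIDR_2, with no overlap (exact permutation p = 0.333, the smallest possible with 2 against 2 libraries). When the targets were taken from intact replicate 1 alone, which gave 108 genes, their mean tagged share was 8.25% and 7.14% in ΔIDR_1, 0.711% and 0.648% in ΔIDR_2, and 9.28% and 9.05% in intact replicates 2 and 4. The order of the strains was the same as for the 38 genes. Both ΔIDR_2 libraries still lay above all dPup2 libraries, by 44.8 times on average over the consistent targets (exact permutation p = 0.0256, the smallest for 2 against 11 libraries, and 0.138 after adjustment over 43 comparisons of library values).

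The other deletions of Nab6 fell in between or close to intact. The mean share of the consistent targets was 13.6% and 15.3% in Nab6_Δ2 and 5.26% and 8.14% in Nab6_Δ4. ΔIDR_1 overlapped Δ2 and lay above both Δ4 libraries, and ΔIDR_2 lay below all of them.

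**Figure D1:**
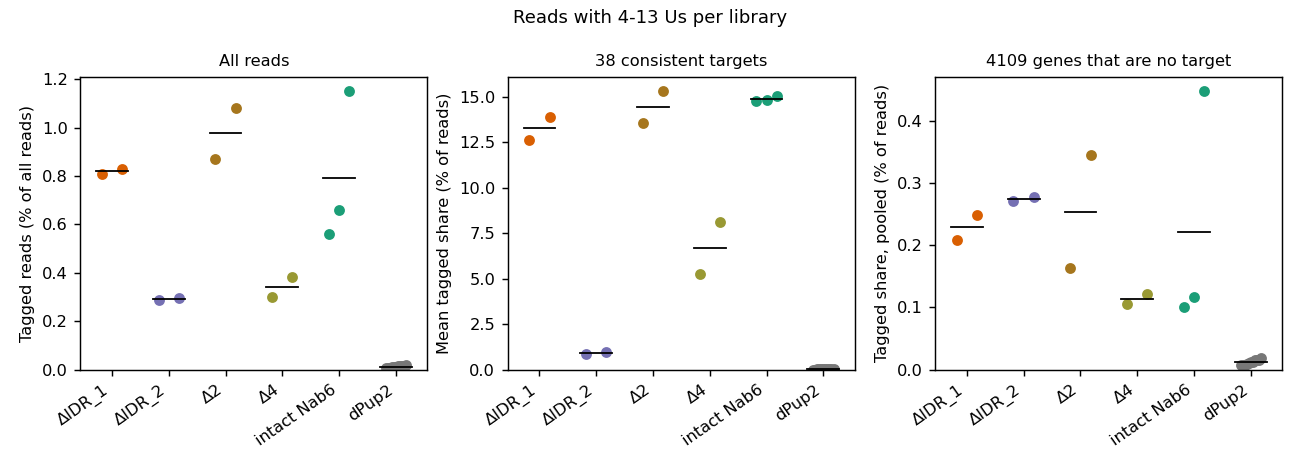
Tagged reads (4–13 Us) per library and strain, in percent of all reads (left), as the mean share of the 38 consistent targets (middle) and as the share of the pooled reads of 4109 genes that are no target (right). Points are libraries and lines are means. On the consistent targets both ΔIDR_2 libraries are under 1%, and on genes that are no target they lie at 0.272% and 0.278%, above all dPup2 libraries.

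Although ΔIDR_2 lost the tags on its targets, it did not lose tagging as such. Of all reads, 0.828% and 0.811% were tagged in ΔIDR_1, 0.290% and 0.295% in ΔIDR_2, 0.660%, 0.561% and 1.15% in intact Nab6, and 0.00761% to 0.0191% in dPup2. With reads of up to 16 Us counted as tagged, the mean was 10.11% in ΔIDR_2, 1.68 percentage points above the 8.425% of intact Nab6. That count takes in the class of 16 Us, which alone made up 3.01% to 9.74% of all reads in dPup2, where the enzyme is inactive. By it dPup2 had a mean of 6.805%, and the excess of ΔIDR_2 over dPup2 did not pass (exact permutation p = 0.103). It is thus no measure of more tagging in ΔIDR_2. By the 4–13 Us used here, ΔIDR_2 had 23.0 times the tagged share of dPup2 (exact permutation p = 0.0256, the smallest possible, adjusted p = 0.138). On the 4109 genes that are no target, the pooled share was 0.208% and 0.250% in ΔIDR_1, 0.272% and 0.278% in ΔIDR_2, 0.117%, 0.101% and 0.449% in intact Nab6, and 0.00753% to 0.0190% in dPup2. Here the deletions overlapped intact Nab6 through its replicate 4 alone, and both lay above its replicates 1 and 2.

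The tagged reads accordingly lay on other mRNAs. The 38 consistent targets held 71.0% and 66.6% of all tagged reads in ΔIDR_1, 7.69% and 7.51% in ΔIDR_2, and 77.5%, 76.5% and 56.4% in intact Nab6. Their part of all reads, tagged or not, was 4.06% and 4.01% in ΔIDR_1, 2.76% and 2.63% in ΔIDR_2, and 3.34%, 2.76% and 4.06% in intact Nab6, so that the tagged reads of ΔIDR_2 were spread more like the mRNA pool. The 138 cytosolic ribosomal protein genes, which are abundant and hold no target of intact Nab6, show the same from the other side. They held 9.42% and 12.4% of the tagged reads in ΔIDR_1, 34.5% and 36.6% in ΔIDR_2, and 5.13%, 6.08% and 15% in intact Nab6, beside 36.4% and 39.3% of all reads in ΔIDR_2. In dPup2, with only 30 to 346 tagged reads per library, the consistent targets held 3.85% to 19.4% of them and the ribosomal protein genes 32.1% to 46.7%. By both measures ΔIDR_2 lay within the dPup2 range.

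To follow single genes, edgeR's quasi-likelihood model was fitted to tagged reads, relative to the total of the same gene in the same library, for the 373 genes that reached 10 tagged reads and a mean of 16 RPM. Against intact Nab6, ΔIDR_2 had 50 genes with a lower tagged share and 0 with a higher one (adjusted p under 0.05, 13.4% of the genes tested were lower). At an unadjusted p under 0.05, 71 were lower and 13 higher, DESeq2 called 49 lower and 0 higher, and limma 60 lower and 5 higher. All 50 are among the 74 targets of intact Nab6 that were tested. A gene with a low share in intact Nab6 has little to lose, so that the test itself favours targets here. ΔIDR_1 had 1 gene with a lower share and 0 with a higher one (0.268% lower), 7 and 2 at an unadjusted p under 0.05, and none by DESeq2 or limma. ΔIDR_1 against ΔIDR_2 had 42 genes with a higher share and 0 with a lower one (11.3% higher), 65 and 4 at an unadjusted p under 0.05. Taken relative to the tagged share of each library, the split was 137 higher and 46 lower for ΔIDR_2 against intact Nab6 and 30 higher and 81 lower for ΔIDR_1 against ΔIDR_2, and with TMM scaling of the tagged reads it was 21 higher and 65 lower for ΔIDR_2 and 54 higher and 6 lower between the deletions. None of the targets called and named here changed direction under these scalings.

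Among the 38 consistent targets, 36 fell in ΔIDR_2 and 1 fell in ΔIDR_1. The median log2 change was -4.45 in ΔIDR_2, or -4.19 with 2 genes that had no tagged read at their lower bound, and -0.22 in ΔIDR_1. Over all genes tested the medians were 0.18 and 0.13. The library values of 37 of the 38 lay below intact Nab6 without overlap in ΔIDR_2, against 22.5% of all genes tested. In ΔIDR_1 this held for 15, against 9.92%. The 38 were chosen on these same intact libraries, which favours a fall, so that setting them against all genes is no test. Between the deletions, 37 were higher in ΔIDR_1 without overlap, against 30.6% of all genes tested, and 33 passed the test, with a median log2 change of 4.05 (3.96 with the genes at 0 at their bound). The share in percent of that in intact Nab6 had a median of 86.3% in ΔIDR_1 (37.3% to 121%) and 4.40% in ΔIDR_2 (0% to 84.9%, with the next highest gene at 26.4%).

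**Figure D2:**
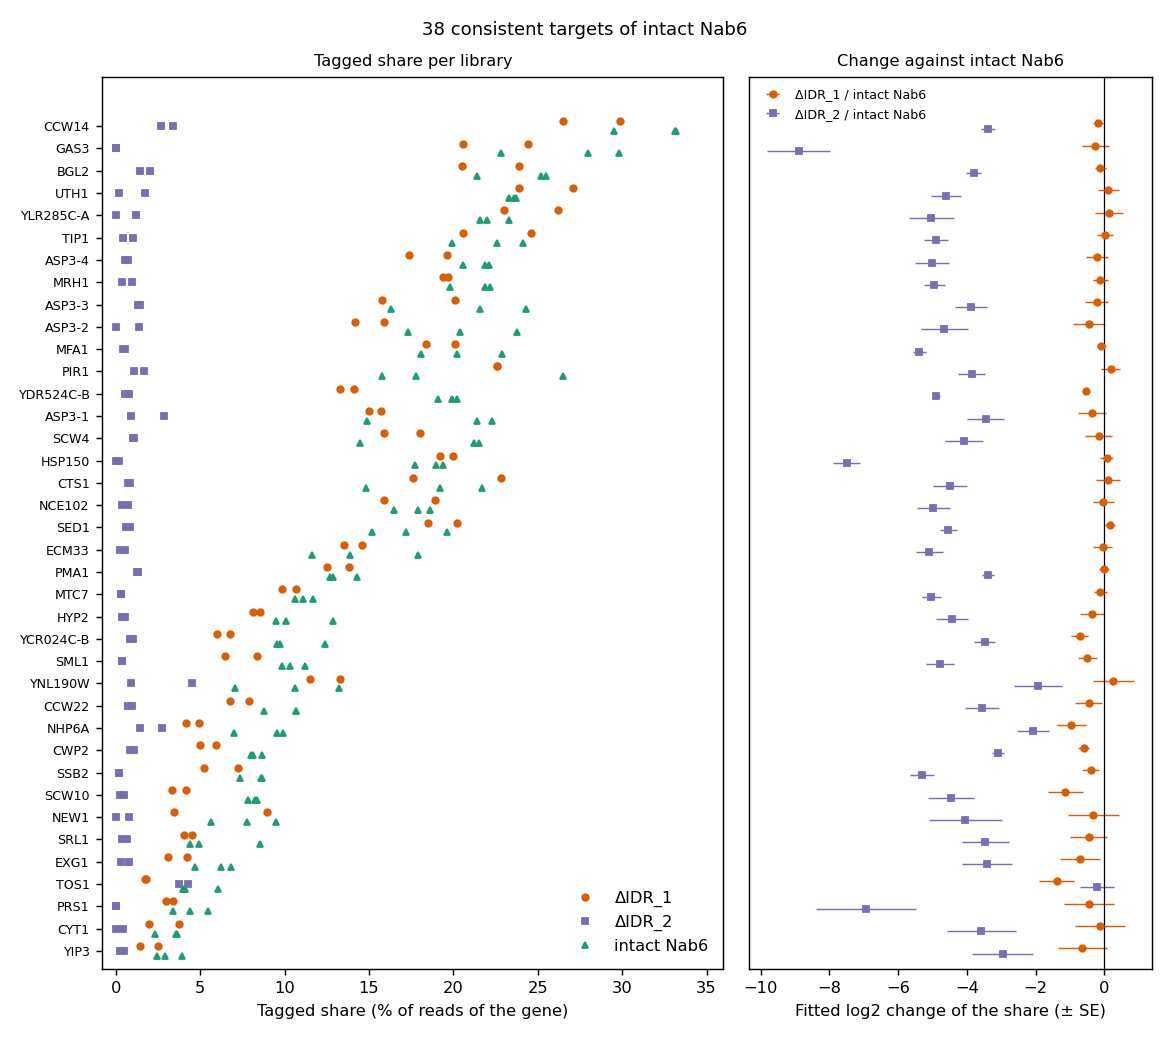
Left, tagged share of each of the 38 consistent targets per library, in percent of the reads of the gene, ordered by the mean in intact Nab6. Right, fitted log2 change of the share against intact Nab6 with its SE. The ΔIDR_2 points sit near 0% for all genes but a few, of which TOS1 is at its level in intact Nab6, and the ΔIDR_1 changes lie around a median of -0.22.

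The most strongly tagged mRNA of intact Nab6 was CCW14 (YLR390W-A, chromosome XII, 903724 to 904440), which encodes a structural mannoprotein of the cell wall. Its tagged share was 29.9% and 26.5% in ΔIDR_1, 3.39% and 2.68% in ΔIDR_2, and 33.2%, 29.5% and 33.1% in intact Nab6. The ΔIDR_2 values, from 13 of 383 and 10 of 373 reads, are among the highest that this strain had on any consistent target, and still fell by 3.39 ± 0.20 on the log2 scale (edgeR adjusted p = 1.42e-07). ΔIDR_1 overlapped intact Nab6, and its change of -0.18 ± 0.15 did not pass (adjusted p = 0.997).

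GAS3 (YMR215W, chromosome XIII, 696796 to 698370), of the Gas family of glucan-elongating enzymes, lost every tag. It had 75 tagged of 308 reads and 72 of 350 in ΔIDR_1, 0 of 109 and 0 of 105 in ΔIDR_2, and tagged shares of 28%, 22.8% and 29.8% in intact Nab6. With 3 counts over both ΔIDR_2 libraries as the limit that a count of 0 allows, the share was at least 19.4-fold lower than in intact Nab6 (adjusted p = 3.82e-05) and at least 15.9-fold lower than in ΔIDR_1 (adjusted p = 6.95e-05).

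HSP150 (YJL159W, chromosome X, 120449 to 121690), a PIR protein of the cell wall, was tagged on 501 of 2511 and 539 of 2809 reads in ΔIDR_1, on 0 of 470 and 1 of 578 in ΔIDR_2, and at 17.7%, 19.4% and 19.0% in intact Nab6. The ΔIDR_1 shares of 20.0% and 19.2% overlapped intact Nab6. The ratio of intact Nab6 to ΔIDR_2 was 192 with a counting interval from 34.3 to 7580 (95%, exact binomial), and edgeR gave an adjusted p of 8.15e-08.

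MFA1, the precursor of the a-factor pheromone, and AGA2, a subunit of the a-agglutinin on the cell surface, are targets that work in mating. MFA1 had a tagged share of 20.1% and 18.4% in ΔIDR_1, 0.561% and 0.420% in ΔIDR_2, and 18.1%, 22.9% and 20.2% in intact Nab6 (-5.38 ± 0.19 in ΔIDR_2, adjusted p = 2.75e-09). AGA2 had 0 of 123 and 0 of 135 reads tagged in ΔIDR_2, which is at least 21.4-fold lower than intact Nab6. Replicate 4 of intact Nab6 held only 98 reads of AGA2, so that it is not among the 38.

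Cell wall genes were taken by lists of known proteins. All genes called lower in ΔIDR_2 are targets of intact Nab6, of which 50 of 74 tested fell. The count of a list can thus be no higher than its number of targets. That number is 6 for the GPI-anchored mannoproteins, 2 for the PIR proteins and 7 for the glucan and chitin enzymes. Of 35 GPI-anchored mannoproteins, 7 could be tested, and 5 fell in ΔIDR_2 (CCW14, CWP2, ECM33, SED1 and TIP1) and none in ΔIDR_1, where over all genes tested 13.4% were lower in ΔIDR_2 and 0.268% in ΔIDR_1. SED1, a major wall glycoprotein, had 18.5% and 20.2% in ΔIDR_1, 0.843% and 0.619% in ΔIDR_2, and 15.2%, 17.2% and 19.6% in intact Nab6. CWP2, another abundant mannoprotein, had 5.95% and 4.97% in ΔIDR_1, 0.877% and 1.06% in ΔIDR_2, and 8.68%, 8.14% and 8.04% in intact Nab6, so that both deletions lay below intact Nab6 without overlap, although ΔIDR_1 did not pass the test (-0.60 ± 0.16, adjusted p = 0.501). FIT3, a mannoprotein and target with few reads, had too few tagged reads for the test.

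Of the 5 PIR proteins, 3 were tested, and PIR1 and HSP150 fell in ΔIDR_2, beside 13.4% of all genes tested. PIR1 had 22.6% and 22.6% in ΔIDR_1, 1.06% and 1.65% in ΔIDR_2, and 17.8%, 15.8% and 26.5% in intact Nab6. CIS3, the remaining PIR gene that was tested, is no target and had 0.396% or less in every intact library. PIR3 and PIR5 had at most a few reads in some libraries. HSP150 and CIS3 share part of their sequence, as do PIR1 and PIR3, and reads could be split between them.

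Of 31 enzymes of glucan and chitin metabolism, 10 were tested and 7 fell in ΔIDR_2, namely BGL2, SCW4, SCW10, EXG1, CTS1, GAS3 and GAS5, beside 13.4% of all genes tested, and none fell in ΔIDR_1. BGL2, the main endo-glucanase of the wall, had 23.9% and 20.5% in ΔIDR_1, 2.02% and 1.42% in ΔIDR_2, and 25.2%, 25.5% and 21.4% in intact Nab6. SCW10, a soluble wall protein of the same enzyme family, had 4.16% and 3.31% in ΔIDR_1, 0.469% and 0.231% in ΔIDR_2, and 8.38%, 8.28% and 7.85% in intact Nab6. Its ΔIDR_1 values lay below intact Nab6 without overlap but did not pass the test (-1.13 ± 0.50, adjusted p = 0.997). The SUN family of wall glucosidases holds UTH1, SUN4, SIM1 and NCA3, of which UTH1 and SUN4 were tested and UTH1 fell in ΔIDR_2. UTH1 had 27.1% and 23.9% in ΔIDR_1, 1.71% and 0.182% in ΔIDR_2, and 23.6%, 23.3% and 23.7% in intact Nab6 (-4.60 ± 0.44 in ΔIDR_2, adjusted p = 1.08e-05). It was the consistent target whose ΔIDR_1 libraries lay above intact Nab6 without overlap, at 0.11 ± 0.30 (adjusted p = 0.997). SUN4 is no target, and SIM1 and NCA3 had at most 2 tagged reads in any of the 7 libraries. The secreted invertase SUC2, the glycoprotein YGP1 and the sterol-binding NPC2, all 3 targets, fell as well, beside 13.4% of all genes tested. They were the 3 genes tested of a list of 7 secreted proteins. The list also holds acid phosphatases, none of which was tested for the tagged share.

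Targets outside the wall lost their tags in ΔIDR_2 too. PMA1, the proton pump of the plasma membrane, had 13.8% and 12.5% in ΔIDR_1, 1.25% and 1.31% in ΔIDR_2, and 12.9%, 12.7% and 14.3% in intact Nab6. MRH1, a membrane protein related to Hsp30, had 19.7% and 19.4% in ΔIDR_1, 0.988% and 0.376% in ΔIDR_2, and 19.8%, 22.2% and 21.9% in intact Nab6. NCE102, which works in the organisation of the plasma membrane, had 18.9% and 15.9% in ΔIDR_1, 0.735% and 0.350% in ΔIDR_2, and 18.6%, 16.5% and 17.9% in intact Nab6. In both genes ΔIDR_2 lay far below ΔIDR_1 and intact Nab6, which overlapped for NCE102. NHP6A, a chromatin protein of the high-mobility group, had 4.18% and 4.96% in ΔIDR_1, 1.44% and 2.73% in ΔIDR_2, and 9.92%, 9.54% and 7.0% in intact Nab6, which gave the smallest fall of the 36 targets called in ΔIDR_2 (-2.07 ± 0.46, adjusted p = 0.00811). SSB2, a ribosome-bound Hsp70 chaperone, had 7.24% and 5.24% in ΔIDR_1, 0.204% and 0.199% in ΔIDR_2, and 8.58%, 8.68% and 7.39% in intact Nab6. PRS1, a subunit of the enzyme that makes phosphoribosyl pyrophosphate, had 0 tagged of 533 reads in ΔIDR_2, at least 7.05-fold lower than in intact Nab6. Of the list of mating-type a genes, MFA1 and AGA2 fell among 4 tested, and of the stress genes SSB2 fell among 5 tested, beside 13.4% of all genes tested. MFA1, AGA2 and SSB2 are the only targets on these lists. SSD1, the 1 gene of wall integrity signalling that was tested, had 0 tagged of 124 reads in ΔIDR_2 but did not pass (adjusted p = 0.104). None of 132 cytosolic ribosomal protein genes, 10 glycolytic enzymes, 8 histone genes, 3 genes of the ER translocon and chaperones and 3 ergosterol enzymes tested passed in ΔIDR_2 in either direction. Their lists hold no target of intact Nab6. SSB2 shares 24.7% of its counted sequence with other genes, and the 4 copies of ASP3, all among the 38, are identical there.

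The gene that fell in ΔIDR_1 was YDR524C-B (chromosome IV, 1489598 to 1489798), an uncharacterized small protein whose mRNA carried the most tagged reads of any gene in both ΔIDR_1 libraries, in ΔIDR_2 replicate 2 and in all intact libraries. Its share was 14.1% and 13.3% in ΔIDR_1, 0.554% and 0.768% in ΔIDR_2, and 19.9%, 20.2% and 19.1% in intact Nab6. The log2 change was -0.53 ± 0.07 in ΔIDR_1 (adjusted p = 0.00685) and -4.89 ± 0.10 in ΔIDR_2 (adjusted p = 1.64e-11). The call in ΔIDR_1 was lost without any one of the ΔIDR_1 libraries or of intact replicates 1 and 2, which left 0 genes each time, and the log2 change then lay between -0.58 and -0.48.

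TOS1 (YBR162C, chromosome II, 563203 to 564570), a protein bound to the cell wall glucan, had a share within the intact range in 1 of its ΔIDR_2 libraries and, of all consistent targets, the lowest ΔIDR_1 share relative to intact Nab6. It was tagged on 11 of 620 and 10 of 571 reads in ΔIDR_1 (1.77% and 1.75%), on 19 of 444 and 18 of 480 in ΔIDR_2 (4.28% and 3.75%), and at 4.11%, 4.00% and 6.08% in intact Nab6. ΔIDR_2 overlapped intact Nab6, and ΔIDR_1 lay below both. It was the 1 gene above 0.15 with at least 100 reads in both ΔIDR_2 libraries, and the 1 consistent target that was lower in ΔIDR_1 than in ΔIDR_2 without overlap. None of its changes passed the test, with -1.39 ± 0.52 for ΔIDR_1 (adjusted p = 0.997), -0.21 ± 0.49 for ΔIDR_2 (adjusted p = 0.845) and -1.17 ± 0.55 for ΔIDR_1 against ΔIDR_2 (adjusted p = 0.275). The last difference passed with the same value in a fit of the deletions alone (adjusted p = 0.049) and without intact replicate 4 (adjusted p = 0.0355), and at -2.65 when shares were taken relative to the tagged share of the library (adjusted p = 0.00288). Without replicate 4, ΔIDR_1 also passed against intact Nab6, at -1.19 (adjusted p = 0.0331). In Nab6_Δ2 its share was 1.23% and 0.772%, and in Nab6_Δ4 2.94% and 3.17%. The remaining consistent target that was not called in ΔIDR_2 is YNL190W, with 11.5% and 13.3% in ΔIDR_1, 0.889% and 4.52% in ΔIDR_2, and 13.2%, 7.06% and 10.6% in intact Nab6. Both ΔIDR_2 libraries lay below all others, and the gene passed without intact replicate 4 (adjusted p = 1.51e-05).

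The number of genes called higher depended on replicate 4. Without it, 350 genes were tested, ΔIDR_1 had 66 higher and 11 lower (18.9% and 3.14%) and ΔIDR_2 had 100 higher and 64 lower (28.6% and 18.3%). Of the 38 consistent targets, 10 were then lower and 1 higher in ΔIDR_1, and 37 lower and 0 higher in ΔIDR_2. Of 130 cytosolic ribosomal protein genes, 56 were then higher in ΔIDR_1 and 74 in ΔIDR_2, beside median log2 changes over all genes of 0.78 and 0.96. The falls of the targets in ΔIDR_2 were thus called with and without replicate 4, and among the fits that left out 1 library, only the one without replicate 4 called a gene higher in either deletion than in intact Nab6. ΔIDR_1 against ΔIDR_2, which shares only its estimate of the spread, then had 64 higher and 14 lower.

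The tagged reads of ΔIDR_2 were also shorter in Us. Over the intact targets, a tagged read had 8.02 and 7.65 Us on average in ΔIDR_1, 6.34 and 5.78 in ΔIDR_2, and 8.31, 8.31 and 7.89 in intact Nab6. ΔIDR_2 lay below all others without overlap (exact permutation p = 0.2 against intact Nab6, the smallest possible), and ΔIDR_1 overlapped intact Nab6 (p = 0.4). Reads with 4 Us made up 11% and 17% of the tagged reads of the consistent targets in ΔIDR_1, 28.7% and 40.6% in ΔIDR_2, and 9.40%, 8.27% and 17.1% in intact Nab6. Reads with 6 Us were the most frequent of the lengths from 5 to 13 Us in all 7 libraries and made up 25.1% and 17.5% in ΔIDR_1, 19.1% and 20.1% in ΔIDR_2, and 23.4%, 23.6% and 15.3% in intact Nab6. The ΔIDR_2 values come from 209 and 234 tagged reads. The order turns round when reads with up to 16 Us are counted as tagged, with means of 12.29 in ΔIDR_1, 15.3 in ΔIDR_2 and 12.18 in intact Nab6, the class of 16 Us being large in every strain.

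**Figure D3:**
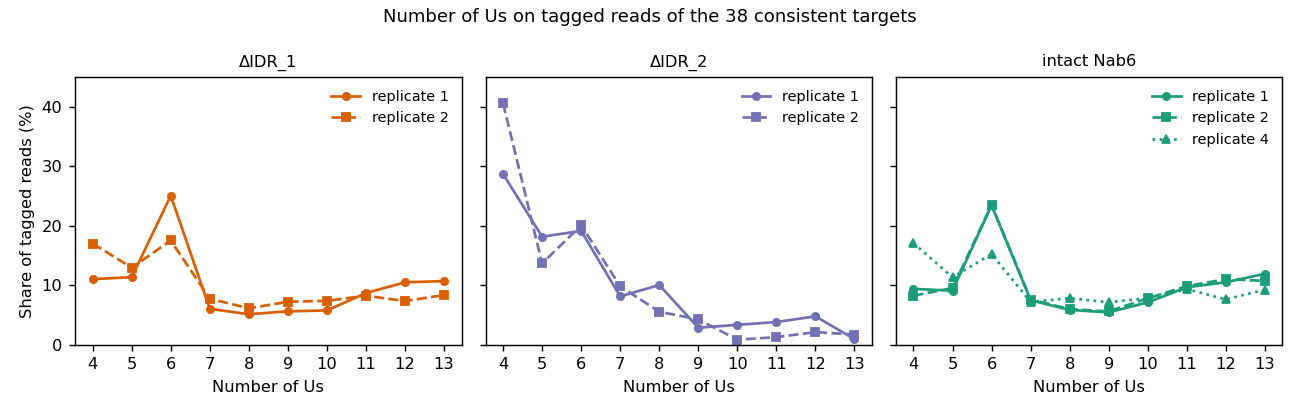
Number of Us on the tagged reads of the 38 consistent targets, in percent of their tagged reads, for each library of ΔIDR_1, ΔIDR_2 and intact Nab6. In ΔIDR_2 the curve starts at 28.7% and 40.6% at 4 Us and is at most 4.79% above 8 Us.

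Longer stretches, which the definition of tagged reads leaves out, separated the strains as clearly. Reads with 14 or 15 Us were 5.89% and 4.67% of the reads of the consistent targets in ΔIDR_1, 0.0503% and 0.0541% in ΔIDR_2, 7.33%, 5.21% and 5.72% in intact Nab6, and 0.00665% to 0.0686% in dPup2. ΔIDR_1 overlapped intact Nab6, and ΔIDR_2 lay within the dPup2 range. On all other genes the same share was 0.144% and 0.173% in ΔIDR_1, 0.147% and 0.0900% in ΔIDR_2, 0.165%, 0.0487% and 0.243% in intact Nab6, and 0.0162% to 0.125% in dPup2. Nab6_Δ2 had 8.59% and 8.45% on the consistent targets, and Nab6_Δ4 1.43% and 2.28%.

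On some targets these long stretches made up a large part of the reads. Over the pooled intact libraries, the share of single consistent targets ranged from 26.0% in SED1 to 0% in EXG1 and SRL1, with 2.58% in YDR524C-B. The 3 genes given here, SED1, PIR1 and MFA1, are those with the highest values. SED1 had 21.7% and 16.3% of its reads at 14 or 15 Us in ΔIDR_1, 0% in both ΔIDR_2 libraries (0 of 679 reads), and 28.4%, 23.5% and 21.4% in intact Nab6. PIR1 had 18.9% and 18% in ΔIDR_1, 0% and 0.549% in ΔIDR_2, and 22.4%, 18.8% and 19.7% in intact Nab6. MFA1 had 17.1% and 13.7% in ΔIDR_1, 0% and 0.105% in ΔIDR_2, and 26.5%, 24.4% and 15.1% in intact Nab6. In each of the 3 genes ΔIDR_2 lay below ΔIDR_1 and intact Nab6 without overlap. Reads with 16 Us, the longest class counted, were 12.6% and 12% on the consistent targets in ΔIDR_1, 12.6% and 8.37% in ΔIDR_2, 11.4%, 10.5% and 13.4% in intact Nab6, and 3.69% to 12.5% in dPup2, so that this class did not separate the strains.

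**Figure D4:**
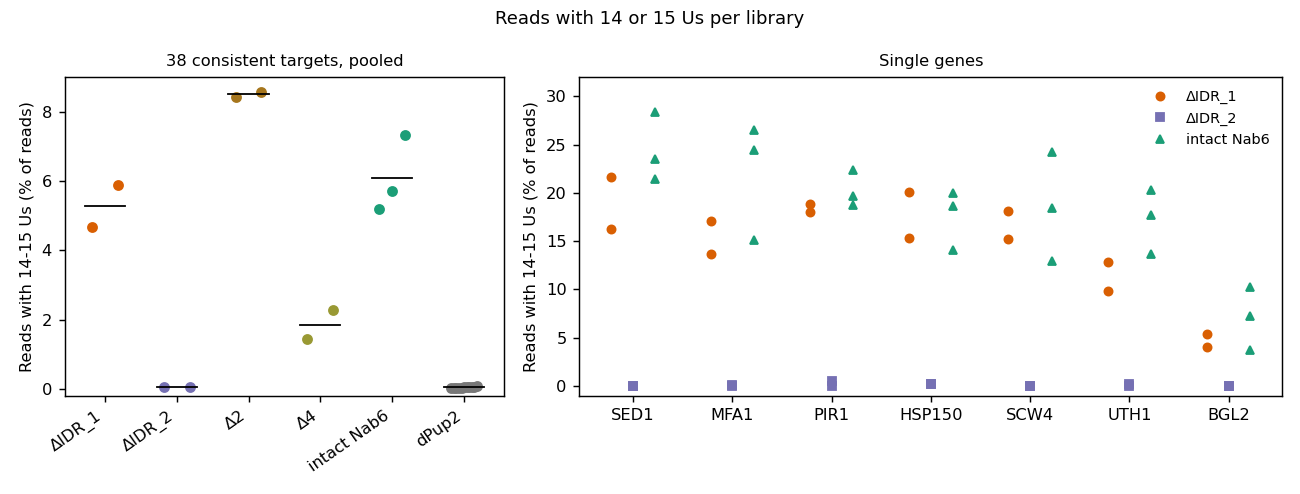
Reads with 14 or 15 Us, in percent of reads, pooled over the 38 consistent targets (left, lines are means) and for single genes with a large such share in intact Nab6 (right). ΔIDR_2 lies at 0.0503% and 0.0541% on the targets, with the dPup2 libraries, and ΔIDR_1 at 5.89% and 4.67%, beside intact Nab6.

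Targets per strain, counted with the definition above on averaged libraries, give a less sharp picture. ΔIDR_1 had 127 targets and ΔIDR_2 106, beside 182 in intact Nab6. From 1 library alone, ΔIDR_1 had 174 and 180 targets and ΔIDR_2 162 and 176, and intact Nab6 had 95 without replicate 4. On averaged libraries, 72 targets of ΔIDR_1 were also targets of intact Nab6 (56.7% of its own and 39.6% of the intact ones), and 9 of ΔIDR_2 (8.49% and 4.95%). The list of 182 is itself uneven. Single intact libraries gave 108, 123 and 381 targets, the last in replicate 4, and 74 of the 182 had enough reads for the test of single genes. The 39.6% is thus no measure of how many well-covered targets ΔIDR_1 lost. The other 97 of ΔIDR_2 rest on a median of 2 tagged reads over both libraries, 91 of them on at most 3, and 74 were tagged in 1 library only. Of the 55 further targets of ΔIDR_1, 41 had at most 3 tagged reads. None in either strain had at least 100 reads and a modification level above 0.15 in both libraries without passing 0.15 in an intact library. Counted as consistent targets, with at least 100 reads in every library of the strain, ΔIDR_1 had 53 and ΔIDR_2 had 1. Of these 53, 35 are among the 38 of intact Nab6. The counts are not alike, since a gene had to pass in 3 libraries of intact Nab6, with the shallow replicate 4 among them, and in 2 of each deletion.

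Binding reliability, the median over 4 to 13 Us of the best correlation of the counts of one length with another across genes, was 0.973 and 0.976 in the ΔIDR_1 libraries, 0.424 and 0.375 in ΔIDR_2, 0.986, 0.982 and 0.934 in intact Nab6, and at most 0.426 in dPup2. The single ΔIDR_2 libraries thus lay within the dPup2 range, but its upper end is that of 1 library. The next highest dPup2 value was 0.349, below both ΔIDR_2 libraries. On averaged libraries the value was 0.983 for ΔIDR_1, 0.529 for ΔIDR_2 and 0.983 for intact Nab6. For ΔIDR_2 the averaged value is above that of either library. It cannot be set against the dPup2 values, which are from single libraries. The genes of a library are not independent replicates, and over them the log2 modification level of averaged libraries correlated with intact Nab6 at r = 0.378 for ΔIDR_1 (4233 genes) and 0.136 for ΔIDR_2 (4222 genes). Single libraries gave 0.294 to 0.484 for ΔIDR_1 and 0.127 to 0.140 for ΔIDR_2, and intact libraries among themselves 0.352 to 0.576.

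To see whether mRNA levels differed, all reads per gene were tested by edgeR with TMM scaling over 5188 genes. In bulk samples fewer cells of a kind and less RNA per cell cannot be told apart. ΔIDR_1 had 0 genes higher and 3 lower than intact Nab6 (0.0578% lower), all of the phosphate-starvation response, and 223 and 203 at an unadjusted p under 0.05. ΔIDR_2 had 5 higher (0.0964%) and 15 lower (0.289%). Between the deletions, 4 genes were higher in ΔIDR_1 (0.0771%) and 0 lower, with 87 and 83 at an unadjusted p under 0.05. DESeq2 called 0 higher and 3 lower for ΔIDR_1, 6 and 26 for ΔIDR_2, and 16 and 0 between the deletions.

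Of the 38 consistent targets, 7 were lower in ΔIDR_2 than in intact Nab6 by all reads, and the median log2 change of the 38 was -0.38, against 0.00 over all genes. The 7 are SED1, PIR1, CCW14, BGL2, HSP150, YLR285C-A and ASP3-4. In ΔIDR_1 none was called, with a median of 0.10 against 0.01 over all genes. SED1 (chromosome IV, 600793 to 601809) had 2060 and 2230 RPM in ΔIDR_1, 380 and 306 in ΔIDR_2, 1460, 937 and 2390 in intact Nab6, and 364 to 1250 in dPup2. ΔIDR_2 lay below intact Nab6 (log2 change -2.34 ± 0.27, adjusted p = 0.00173) and at the low end of dPup2. PIR1 had 731 and 817 RPM in ΔIDR_1, 201 and 172 in ΔIDR_2, 523, 334 and 666 in intact Nab6, and 187 to 499 in dPup2. The 4 genes higher in ΔIDR_1 than in ΔIDR_2 were SED1 (2.69 ± 0.29), PIR1 (2.10 ± 0.24), HSP150 (1.86 ± 0.24) and BGL2 (1.25 ± 0.21).

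Reads with 0 Us give a further count of these genes, but tagging itself takes reads out of this class. On the 38 targets, 61.9% and 64.8% of reads had 0 Us in ΔIDR_1, 81.6% and 88.4% in ΔIDR_2, and 60.1%, 63.5% and 58.7% in intact Nab6, so that a level from reads with 0 Us is raised in ΔIDR_2 relative to the other strains by the loss of tags alone. With that limit, the 38 targets had a median log2 change of -0.02 in ΔIDR_2 by this count, against 0.01 over all genes. The 1 target called was MFA1, which was higher in ΔIDR_2 (0.98, edgeR adjusted p = 0.0314). Over the 5113 genes tested, 12 were called higher and 10 lower (0.196% lower), and 0 genes were called between the deletions. SED1 then had 701 and 841 RPM in ΔIDR_1, 288 and 252 in ΔIDR_2, and 441, 272 and 757 in intact Nab6, so that ΔIDR_2 overlapped intact Nab6 and lay below ΔIDR_1 without overlap (log2 difference 1.53 for ΔIDR_1 against ΔIDR_2, adjusted p = 0.0584). PIR1 differed by 0.93 (adjusted p = 0.133), HSP150 by 0.78 and BGL2 by 0.63 (adjusted p = 1 for both) between the deletions. BGL2 had 592 and 721 RPM with 0 Us in ΔIDR_1, 440 and 419 in ΔIDR_2, and 463, 365 and 660 in intact Nab6. HSP150 had 700 and 808 RPM with 0 Us in ΔIDR_1, 408 and 477 in ΔIDR_2, and 420, 290 and 679 in intact Nab6. In both genes ΔIDR_2 overlapped intact Nab6 and lay below ΔIDR_1. Whether the mRNA of these genes was less abundant in ΔIDR_2 cannot be told from these counts. The 20 calls of ΔIDR_2 by all reads became 2 without its replicate 1, 1 without its replicate 2, 5 without intact replicate 1 and 193 without intact replicate 4, and the 4 between the deletions became 2, 2, 2 and 0 without each of their libraries in turn, 13 without intact replicate 2 and 53 without intact replicate 4.

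**Figure D5:**
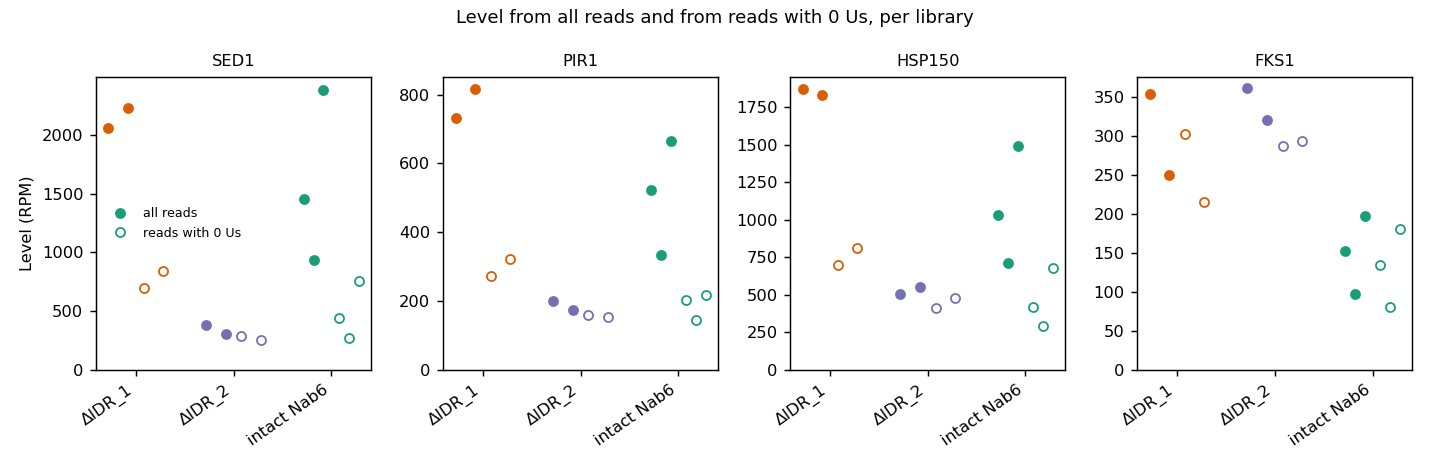
Level per library in RPM from all reads (filled) and from reads with 0 Us (open) for 4 genes. For SED1, PIR1 and HSP150 the filled ΔIDR_2 points lie below those of ΔIDR_1 and intact Nab6, while the open ones, which loss of tags raises, overlap intact Nab6 for these 3 genes, and FKS1 is higher in both deletions by either count.

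FKS1, the catalytic subunit of the main glucan synthase, had 354 and 250 RPM in ΔIDR_1, 362 and 321 in ΔIDR_2, 153, 97.6 and 198 in intact Nab6, and 91.3 to 303 in dPup2. Both deletions lay above intact Nab6, and the change passed in ΔIDR_2 (1.06 ± 0.21, adjusted p = 0.0298) and not in ΔIDR_1 (0.93 ± 0.21, adjusted p = 0.263), while the difference between the deletions was -0.14 ± 0.22 (adjusted p = 0.999). Nab6_Δ2 had 283 and 213 RPM of FKS1, also above all intact libraries, and Nab6_Δ4 had 109 and 83.5, so that the rise is not particular to the IDR deletions. FKS1 is no target and had 0 tagged reads in intact Nab6. PHO84, the high-affinity phosphate transporter, had 57.3 and 39.1 RPM in ΔIDR_1, 46.9 and 32.2 in ΔIDR_2, 237, 300 and 129 in intact Nab6, and 3.61 to 43.8 in dPup2. In Nab6_Δ2 it had 22.8 and 48.0 RPM and in Nab6_Δ4 41.2 and 113, so that the intact libraries were high relative to every other strain given here. The acid phosphatases PHO5 and PHO11, which share sequence, were lower in both deletions too, and PHO12, SPL2 and VTC3, further genes of the phosphate response, in ΔIDR_2. Culture and phosphate supply are not recorded per library, and their part in these differences was not tested. The 3 calls of ΔIDR_1 became 0 without either of its libraries or intact replicate 1, 8 without intact replicate 2 and 111 without intact replicate 4.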

How the data were processed

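The 22 libraries used hold deposited counts of sense reads from 300 nt before to 100 nt after each transcript end, per gene (6629) and number of Us (0 to 16), which the authors made with bcl2fastq, cutadapt, Bowtie2, the R64 genome and bedtools. Whether the UMIs were collapsed is not given in the sources used here. No other normalization was applied to the deposited counts, and 233 libraries of other strains were not used. Here, counts were scaled to 1000000 reads (RPM), and modification level and binding reliability followed the study's definitions. The minimum of 16 RPM for targets and the unweighted tagged share were added here. Single genes were tested by edgeR 4.0.16 (quasi-likelihood, Benjamini-Hochberg) in 1 fit of 7 libraries, with DESeq2 1.42.0 and limma 3.58.1 (pseudocounts 0.5 and 1) as alternatives. Library values were compared by exact permutation tests. Intervals cover counting error only. The titles name separate clones for the libraries of ΔIDR_1, ΔIDR_2 and Nab6_Δ4. For the other strains, intact Nab6 among them, nothing says that libraries come from separate cultures, so p-values may in part measure technical spread. Annotation (5956 genes matched) came from RefSeq R64. Members and lists were chosen with earlier results of these data known. Named genes were NAB6, the 6 of highest modification in intact Nab6, the largest called changes of share (5 each way, 3 between the deletions) and of total (4), PIR, SUN and TOS1 genes, and called or targeted genes of other wall lists. AGA2, CIS3, PMA1, MRH1, NCE102, NHP6A, SSD1, YNL190W, the phosphate genes, SUC2, YGP1, NPC2 and YLR285C-A were added after their values were seen. The consistent targets, the genes that are no target and the classes of 14 to 16 Us per gene were defined after seeing the data.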

Additional observations from a re-analysis of the deposited data

Results flagged for a closer look

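Of the genes tested, 42 differed in tagged share between ΔIDR_1 and ΔIDR_2, all higher in ΔIDR_1. For these, the change against intact Nab6 differs between the deletions by a direct test. By all reads, 4 genes differed in total, SED1, PIR1, HSP150 and BGL2. By reads with 0 Us, 0 genes were called between the deletions. Whether the mRNA of these 4 genes differed cannot be told from these counts, as given above.

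Reads with 14 or 15 Us, which are outside the 4–13 Us used above, exceeded every dPup2 library (at most 0.124% of all reads) in 6 of the 7 libraries. They were 0.377% and 0.353% of all reads in ΔIDR_1, 0.144% in replicate 1 of ΔIDR_2, and 0.404%, 0.191% and 0.466% in intact Nab6. On the consistent targets ΔIDR_2 had no such excess, as given above, so that its 0.144% lies on other genes.

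Reads with 16 Us exceeded the highest dPup2 library (9.74% of all reads) in replicate 1 of ΔIDR_2, at 11.5%, and in replicate 4 of intact Nab6, at 10.3%.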

How the results depend on the processing

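With 2 or 3 libraries per strain, exact tests cannot pass 0.05 against intact Nab6, and genes under 10 tagged reads were not tested. The comparisons below are given in the order ΔIDR_1 against intact Nab6, ΔIDR_2 against intact Nab6 and ΔIDR_1 against ΔIDR_2, as numbers of changed genes where these moved by over 1.5 times. For the tagged share, 4–16 Us gave 0, 29 and 20, and scaling to the library's tagged share 0, 183 (137 higher, 46 lower) and 111 (30 higher, 81 lower). TMM without the offset gave 0 for ΔIDR_1 and 86 (21 higher, 65 lower) for ΔIDR_2. At least 50 tagged reads, the 11 Nab6 libraries, DESeq2 and limma gave 0 for ΔIDR_1, and a fit of the deletions alone 78 (62 higher, 16 lower) between them. Leaving out 1 library gave 0 to 77, 40 to 164 and 31 to 78. For total reads, DESeq2 gave 32 for ΔIDR_2 and 16 between the deletions, no filter 5, 74 and 11, a fit of the deletions alone 54, and reads with 0 Us 7 for ΔIDR_1 and 0 between the deletions. Leaving out 1 library gave 0 to 111, 1 to 193 and 0 to 53. The replicate block gave 34, 143 and 64 for the share and 267, 361 and 61 for totals, but same-numbered libraries deviated together with r of at most 0.0927, so the numbers pair nothing.

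With 4–16 Us as tagged, the tagged share of all reads differed by 1.68 percentage points for ΔIDR_2 minus intact Nab6 and by -0.733 for ΔIDR_1 minus ΔIDR_2, and the mean number of Us by 0.108 for ΔIDR_1 minus intact Nab6, 3.11 for ΔIDR_2 minus intact Nab6 and -3.00 between the deletions, all reversed. The excess over dPup2 was then 2.57 points in ΔIDR_1 and 3.30 in ΔIDR_2 over all reads and 2.86 on targets in ΔIDR_2, no longer past 0.05. The median over targets minus dPup2 was 0.433 for ΔIDR_1 and 0 for ΔIDR_2. Without 1 library, the excess over dPup2 was 4.43 to 4.91 points for ΔIDR_1 and 0.486 to 0.631 for ΔIDR_2 on targets, 0.798 to 0.815 and 0.277 to 0.282 over all reads, and 0.196 to 0.238 and 0.260 to 0.266 on other genes, where 1 library cannot pass 0.05. Against intact Nab6, ΔIDR_1 then differed by -0.0869 to 0.209 over all reads and by -0.0540 to 0.120 on genes that are no target, and ΔIDR_2 on those genes by -0.00807 to 0.166.

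Targets in the order ΔIDR_1, ΔIDR_2 and intact Nab6 were 216, 241 and 287 at a threshold of 0.1, 65, 17 and 91 at 0.3, and 53, 1 and 38 with at least 100 reads in every library. No expression filter gave 196 for ΔIDR_1 and 161 for ΔIDR_2, and summed reads 108 for intact Nab6. Leaving out 1 library gave 162 to 176 for ΔIDR_2 and 95 to 271 for intact Nab6. Binding reliability by Spearman correlation was 0.439, 0.331 and 0.439, and with 1 library 0.973 to 0.976 for ΔIDR_1 and 0.375 to 0.424 for ΔIDR_2. The correlation with intact Nab6 was 0.619 for ΔIDR_1 and 0.112 for ΔIDR_2 at a pseudocount of 0.1, 0.674 and 0.290 at 100 RPM or more, and 0.275 and 0.205 by Spearman. The cause of these shifts was not tested.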
